A study of Mus musculus with 18 samples.

Results

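The genes described here carry the mouse symbol Zfp followed by a number, the name given to a large family of zinc finger proteins, and were expressed in unstimulated splenic B cells. They were taken as the symbols of this form whose mean over the 9 unstimulated libraries was over 3 log2 CPM (log2 of the read count scaled to a common library total), which left 201 members of the 332 genes of the name pattern used here, in a table of 23420 genes. One gene of the pattern was set aside by the rule and is not described. The other 131 genes lay at or under 3 log2 CPM. The members just inside the limit were Zfp688, Zfp277 and Zfp946, each with an unstimulated mean of 3.01 log2 CPM, and the genes just outside were Zfp382 at 2.97, Zfp316 at 2.98 and Zfp940 at 2.99. Because the unstimulated level chose the members, that level is a description only. The same libraries also enter each agonist response, so counts of members are given beside those of all genes and of genes over the same level, and again for members chosen on other libraries.

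RNA-seq was performed on B cells isolated with beads from the spleen of mice of the lupus-prone strain MRL/lpr (MRL.Faslpr), which carries the lpr mutation of Fas. The mice were 5 to 7 weeks old, the females being 5 weeks old by the study's methods. There were 6 groups of 3 libraries. In the females of the first arm, which all lacked Tlr7 (Tlr7-/-), Tlr997 mice, whose Tlr9 locus encodes TLR9 with the signaling (TIR) domain of TLR7, were compared with Tlr9+/- mice, called Tlr9het, whose B cells carry 1 intact Tlr9 allele. Their cells were left unstimulated or given the TLR9 agonist CpG at 10 µg/ml for 4 hours. In the second arm, males that lacked Tlr9 (Tlr9-/-) and carried Tlr779, which encodes TLR7 with the TIR domain of TLR9, gave cells that were left unstimulated or given the TLR7 agonist CL097 at 5 µg/ml for 4 hours. The alleles were present in the whole animal, not in B cells alone. Sex, receptor, agonist and arm, and any difference in age, cannot be told apart between the arms, so no test was made across them. Libraries of Tlr7WT mice were not analysed here. The sample titles and the series design name the first control Tlr9+/-, while a protocol note names it Tlr9-/-. The titles were followed.

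Libraries of 1 group correlated over genes with r between 0.947 and 0.990, and the 2 lowest values both involved unstimulated Tlr997 replicate 3. Targeted genes gave a partial check of the labels. Tlr7 averaged 3.15 log2 CPM in unstimulated Tlr9het, 4.96 in Tlr997 and 6.88 in Tlr779, whereas Tlr9 averaged 7.37, 7.04 and 7.24. The Tlr9-/- label of the Tlr779 mice was thus not visible in the summed reads of Tlr9. By the study's methods, Tlr997 holds an inserted TIR sequence of Tlr7, and Tlr779 one of Tlr9. The part of these inserts in the reads was not tested. The B cell markers Cd79a, Cd79b, Ms4a1, Cd22 and Pax5 were all detected. The summed level of these 5 genes lay between 12.2 and 12.7 log2 CPM in the unstimulated libraries and between 10.2 and 11.3 in the stimulated ones, and was lowest, at 10.2, in Tlr9het with CpG. The summed level of 5 T cell markers lay between 0.85 and 3.23 in unstimulated and between 0.96 and 4.40 in stimulated libraries. That of 4 measured macrophage markers lay between 6.76 and 8.68 unstimulated and between 6.28 and 7.37 stimulated. Summed neutrophil markers (2 of 3 measured) lay between 0.81 and 6.02 unstimulated and between 0.38 and 5.54 stimulated, erythroid markers (3 of 4) between 3.62 and 8.69 and between 3.54 and 8.31, and NK cell markers (3) between -1.38 and 0.72 and between -0.86 and 2.79. In every group 2 of the erythroid markers were below 0 log2 CPM in each library. The part of these shifts in the results was not tested. In bulk libraries, fewer cells of a type and less RNA per cell cannot be told apart, and a log2 CPM value is a share of a library, not an amount of RNA per cell.

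Most Zfp proteins bind DNA or RNA through C2H2 zinc fingers, short loops in which paired cysteines and histidines hold a zinc ion. Many also carry a KRAB box, a protein segment that recruits Trim28 (KAP1) and with it Setdb1, HP1 proteins and histone deacetylases to silence transposable elements and other targets. KRAB zinc finger genes arose by tandem duplication and lie in clusters, while the Zfp genes without this box are a mixed group with roles in transcription, splicing, mRNA decay, ubiquitylation and ribosome assembly. By a search of translated coding sequences (GENCODE vM21, GRCm38), 102 members had a KRAB A box, 98 had none, and 1 gene, Zfp862, could not be classified for want of an annotated coding sequence. Members with the box had a median of 12 fingers, those without it a median of 7, and the longest array had 36 fingers. The search pattern found no C2H2 finger in 6 members, among them Zfp36, whose fingers are of another type. The median unstimulated level was 4.33 log2 CPM for KRAB members and 5.36 for the others.

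Upstream windows are shown for 5 of the members named below for a rise, a fall or a difference between genotypes. No RefSeq window was at hand for Zfp593, Zfp828, Zfp395, Zfp608, Zfp90 and Zfp40, which are also named below. Each window holds the 250 bases before the RefSeq start on GRCm38.p6, on the strand of the gene, with capitals for the motifs found in it. Capitals mark a GC box (GGGCGG), an ETS site (CCGGAAG) or a TATA box (TATAAA), each searched on both strands. The windows lie at chr8:79028187-79028436 on the plus strand for Zfp827, chr1:136624651-136624900 on the plus strand for Zfp281, chr17:21535289-21535538 on the plus strand for Zfp52, chr17:22867135-22867384 on the minus strand for Zfp945, and chr7:28379229-28379478 on the minus strand for Zfp36.
Zfp827: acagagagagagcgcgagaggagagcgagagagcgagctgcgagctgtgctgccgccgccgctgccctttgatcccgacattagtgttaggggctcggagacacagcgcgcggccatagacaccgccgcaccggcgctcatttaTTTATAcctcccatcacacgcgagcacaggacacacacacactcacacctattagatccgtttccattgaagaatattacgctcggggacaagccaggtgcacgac
Zfp281: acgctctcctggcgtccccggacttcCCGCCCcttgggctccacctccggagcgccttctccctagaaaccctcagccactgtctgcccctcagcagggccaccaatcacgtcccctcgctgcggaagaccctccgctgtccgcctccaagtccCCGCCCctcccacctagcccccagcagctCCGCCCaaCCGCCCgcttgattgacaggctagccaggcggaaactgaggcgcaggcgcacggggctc
Zfp52: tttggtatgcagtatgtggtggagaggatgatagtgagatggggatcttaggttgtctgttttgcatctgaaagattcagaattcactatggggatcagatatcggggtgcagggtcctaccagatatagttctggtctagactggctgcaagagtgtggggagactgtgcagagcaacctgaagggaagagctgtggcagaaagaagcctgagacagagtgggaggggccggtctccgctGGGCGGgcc
Zfp945: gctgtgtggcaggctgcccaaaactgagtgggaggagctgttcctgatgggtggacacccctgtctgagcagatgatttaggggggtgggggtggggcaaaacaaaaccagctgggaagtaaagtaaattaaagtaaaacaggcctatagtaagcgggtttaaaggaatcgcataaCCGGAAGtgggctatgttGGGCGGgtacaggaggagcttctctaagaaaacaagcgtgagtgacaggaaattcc
Zfp36: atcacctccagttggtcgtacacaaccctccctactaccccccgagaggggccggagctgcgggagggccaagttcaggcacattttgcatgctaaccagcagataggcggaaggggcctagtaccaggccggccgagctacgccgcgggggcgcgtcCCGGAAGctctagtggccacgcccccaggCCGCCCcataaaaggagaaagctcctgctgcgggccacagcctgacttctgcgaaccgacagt

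Zfp281 held 4 GC boxes, Zfp52 held 1, Zfp945 and Zfp36 each held 1 GC box and 1 ETS site, and Zfp827 held a TATA box. RefSeq windows were matched for 168 members, which had 203 windows. A GC box stood in 49.3% of the members' windows and in 32.7% of all 32851 windows, and in 36.6% of the windows of KRAB members against 61.8% of those of the other members. The ETS site stood in 17.7% of the members' windows, in 20.8% of those of KRAB members, and in 6.91% of all windows. An E-box (CACGTG) stood in 6.90% of the members' windows and 6.02% of all windows, a TATA box in 6.40% and 12.4%, the CRE core (TGACGTCA) in 3.94% and 1.55%, and an NF-kB site in 1.48% and 1.41%. Of 49 windows of members that were lower in all 3 agonist responses, 28.6% held the ETS site, 16.3% an E-box and 44.9% a GC box. A TATA box stood in 6.12% of these 49, the CRE core in 2.04% and an NF-kB site in 0%. Of 16 windows of members higher in all 3, 12.5% held the ETS site, 6.25% an E-box and 50% a GC box. The E-box stood in 9.9% of the windows of KRAB members. These shares describe letters in a window and were not tested.

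More of the members were lower than higher with agonist in each of the 3 responses. This excess was smaller where the stimulated libraries chose the members. The test was limma on the deposited log2 CPM over all genes that passed a filter on low values. A gene was called where its Benjamini-Hochberg adjusted p was under 0.05 and its absolute log2 fold change over 0.5. All 201 members passed the filter. For CpG in Tlr9het, 32 members rose and 78 fell, beside 29.7% of all 11494 tested genes higher and 28.2% lower, so the members' shares were 15.9% and 38.8%. With CpG in Tlr997, 34 members (16.9%) were higher and 66 (32.8%) lower, beside 29.6% and 26% of all tested genes. With CL097 in Tlr779, 25 members (12.4%) were higher and 72 (35.8%) lower, beside 22.7% and 23.6% of all 11082 tested genes. Among all genes over 3 log2 CPM unstimulated, of which 8370 were tested in the first arm and 8369 in the second, 28.7% were higher and 31.8% lower in Tlr9het, 27.8% and 29.2% in Tlr997, and 21.4% and 25.7% with CL097. The members' median log2 fold change was -0.30, -0.17 and -0.29 in these responses, and that of all tested genes was 0.04, 0.07 and -0.02. Choosing the members by their mean over the 9 stimulated libraries instead gave 182 genes, of which 41 were higher and 51 lower in Tlr9het, 41 and 44 in Tlr997, and 32 and 48 with CL097. The shares lower by that choice were 28%, 24.2% and 26.4%, beside 26.6%, 24.1% and 20.8% of all genes chosen in the same way, and the shares higher were 22.5%, 22.5% and 17.6% beside 33.7%, 32.9% and 25.8%. By that choice the share of members that were lower was thus near that of all genes with CpG, and the share that were higher remained under it. Choosing on the unstimulated libraries of the other arm gave 75 of 195 members lower in Tlr9het, 64 of 195 in Tlr997 and 72 of 204 with CL097. These shares were 38.5%, 32.8% and 35.3%, beside 31.8%, 29.2% and 25.6% of all genes so chosen. The shares higher were 14.9%, 15.9% and 12.7%, beside 28.5%, 27.6% and 21.5%.

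The falls lay mainly among members with a KRAB box. In Tlr9het given CpG, 7 of the 102 KRAB members were higher and 55 lower, followed by 6 higher and 45 lower with CpG in Tlr997, and 5 higher and 52 lower with CL097 in Tlr779. Of the 98 members without the box, 25 were higher and 22 lower, 28 higher and 20 lower, and 20 higher and 19 lower in the same order. Among all genes over 3 log2 CPM unstimulated, 28.7% were higher and 31.8% lower, 27.8% and 29.2%, and 21.4% and 25.7%. Beside these genes, KRAB members were lower more often and higher less often. Members without the box were higher about as often and lower less often. The median log2 fold change was -0.55, -0.37 and -0.51 for KRAB members and 0.02, 0.05 and 0.03 for the others.

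The mean over the KRAB members showed the shift in every library. In Tlr9het it was 4.56, 4.58 and 4.57 log2 CPM unstimulated and 3.94, 3.98 and 3.97 with CpG. In Tlr997 it was 4.44, 4.43 and 4.58 unstimulated and 3.97, 4.08 and 4.22 with CpG. In Tlr779 it was 4.47, 4.46 and 4.47 unstimulated and 3.91, 4.00 and 3.85 with CL097. The stimulated libraries lay below the unstimulated ones in each genotype, without overlap. The same unstimulated libraries chose these genes, so this separation is a description only. The mean over the members without a KRAB box stayed between 5.30 and 5.42 in all 18 libraries.

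**Figure D1:**
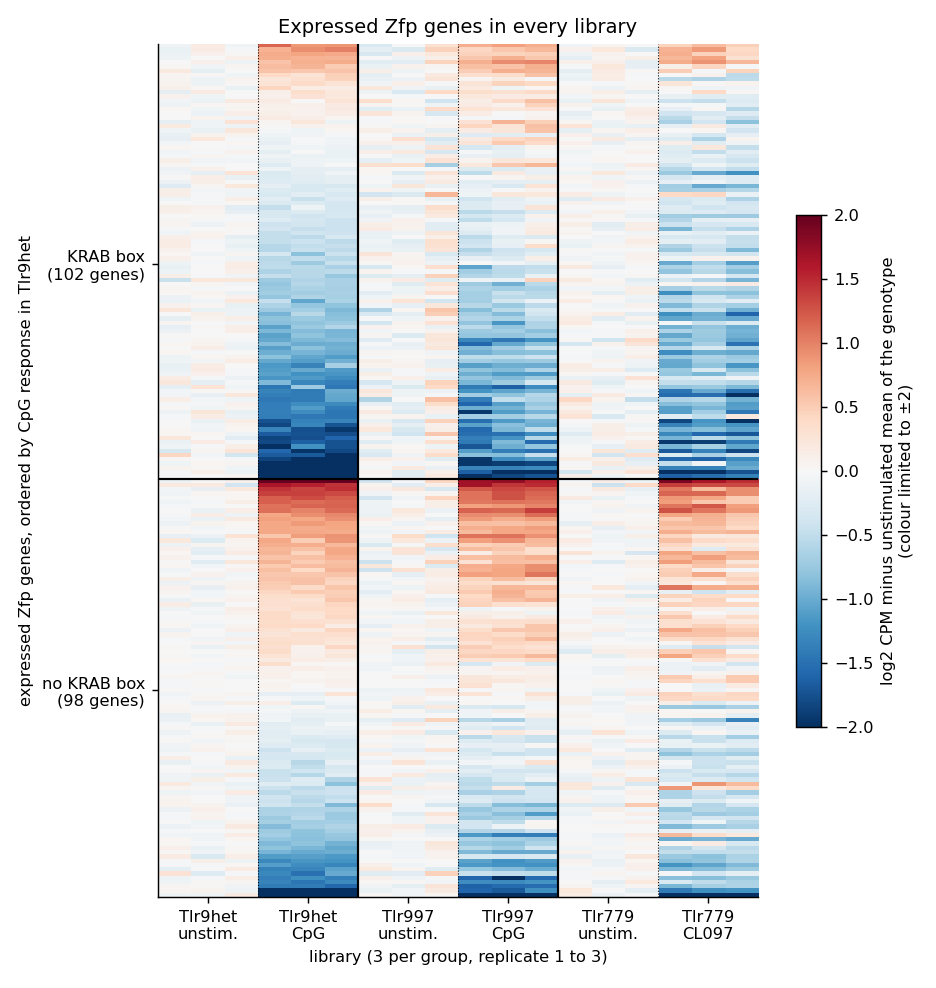
Each row is an expressed Zfp gene and each column a library, coloured by log2 CPM minus the unstimulated mean of the same genotype, with colours limited to ±2 on the log2 scale. The 102 genes with a KRAB box (upper block) are blue, that is lower, more often than red in the stimulated columns, and the 98 without it (lower block) are divided between both colours.

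The level of the genes was also held apart. For CpG in Tlr9het and the band from 3 to 5 log2 CPM unstimulated, 7 of 72 KRAB members were higher and 40 lower, 15 of 45 members without the box were higher and 10 lower, and 35.8% of all 2940 genes of the band were higher and 26.5% lower. Over 5 log2 CPM, 0 of 30 KRAB members were higher and 15 lower by the limma call. An unadjusted p under 0.05, in either direction, was found in 25 of these 30, a count not set beside that of all genes. Of the 53 members of that band without the box 10 were higher and 12 lower, while 24.8% of all its 5430 genes were higher and 34.7% lower. Finger number gave a similar picture, since of members with 11 or more fingers 40 of 70 with the KRAB box were lower in that response and 6 of 25 without it. Both splits were chosen after the values were seen. When members were instead chosen by their mean over the 9 stimulated libraries, the KRAB counts were 14 higher and 33 lower of 87 for CpG in Tlr9het, 11 and 26 of 87 in Tlr997, and 10 and 33 of 87 with CL097, and those without the box were 26 and 18, 29 and 18, and 21 and 15 of 94. KRAB members were thus lower in 37.9%, 29.9% and 37.9% and higher in 16.1%, 12.6% and 11.5%, beside 26.6%, 24.1% and 20.8% of all genes chosen in the same way lower and 33.7%, 32.9% and 25.8% higher. Their median log2 fold change by this choice was -0.30, -0.11 and -0.33, and that of all such genes 0.11, 0.13 and 0.05. When they were chosen on the unstimulated libraries of the other arm, 52 of 98, 43 of 98 and 52 of 104 KRAB members were lower (53.1%, 43.9% and 50%), beside 31.8%, 29.2% and 25.6% of all genes chosen in the same way.

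**Figure D2:**
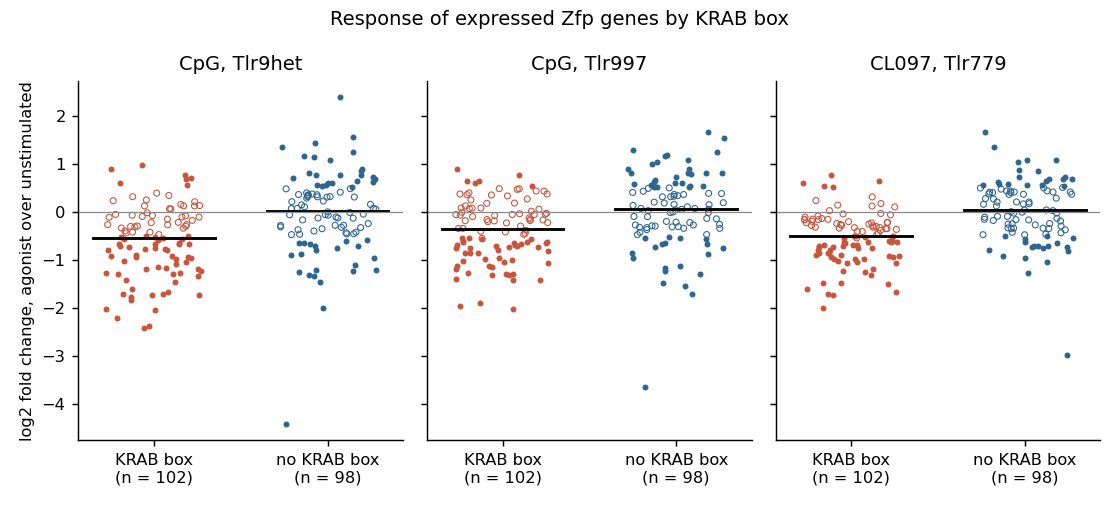
Log2 fold change of each expressed Zfp gene in the 3 agonist responses, for the 102 members with a KRAB box and the 98 without. Filled points passed the call, open points did not, and the black lines are medians, at -0.55, -0.37 and -0.51 with the box and 0.02, 0.05 and 0.03 without it.

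In all 3 responses 18 members were higher and 51 lower, which is 8.96% and 25.4% of the members beside 19% and 19% of the 11012 genes tested in all 3. No member was called in opposite directions and 69 were called in none. The 51 lower members were 39 with a KRAB box, 11 without it and Zfp862. The 18 higher members were 4 with the box (Zfp94, Zfp747, Zfp930 and Zfp932) and 14 without it. Zfp94 rose by 0.97, 0.75 and 0.52 on the log2 scale, and Zfp930 by 0.68, 0.88 and 0.77. The 2 CpG responses share a fit but not libraries, and each was computed against its own unstimulated group.

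Among the members without a KRAB box, Zfp395, Zfp292, Zfp608 and Zfp260 were named for their falls. Zfp395, which is known to bind the promoter of the huntingtin gene and to be induced by hypoxia, had 5.54, 5.55 and 5.81 log2 CPM in unstimulated Tlr9het and 1.06, 1.56 and 0.99 with CpG. In Tlr997 it had 5.66, 5.58 and 5.68 unstimulated and 1.92, 1.90 and 2.13 with CpG, and in Tlr779 it had 5.95, 5.69 and 5.77 unstimulated and 2.71, 2.81 and 2.91 with CL097. Every stimulated library lay below every unstimulated one by over 2 log2 units. The log2 fold changes were -4.43 ± 0.15 (SE), -3.65 ± 0.15 and -2.996 ± 0.115, the largest falls of any member in each response (limma adjusted p = 2.8e-11, 1.9e-10 and 2.3e-06). In Tlr9het the level with CpG was 0.0465 of the unstimulated level.

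Zfp292 was among the 3 members with the highest unstimulated values, at 7.99, 8.03 and 7.85 log2 CPM in Tlr9het, and fell to 5.96, 5.91 and 5.97 with CpG. It fell from 7.82, 7.90 and 8.13 to 6.37, 6.27 and 6.73 in Tlr997, and from 8.16, 7.94 and 7.76 to 6.54, 6.72 and 6.75 in Tlr779. The log2 fold changes were -2.01 ± 0.11 (SE), -1.50 ± 0.11 and -1.28 ± 0.11. Zfp608, known in thymocytes as a repressor of the Rag genes, fell by 1.32, 1.72 and 0.81 on the log2 scale, and Zfp260, a cardiac transcription factor, by 1.46, 1.56 and 0.73.

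Among KRAB members the largest falls were those of Zfp945, Zfp273, Zfp52, Zfp667 and Zfp759 with CpG in Tlr9het and of Zfp273, Zfp40, Zfp882, Zfp763 and Zfp324 with CL097. Zfp945 had 4.10, 4.15 and 4.19 log2 CPM in unstimulated Tlr9het and 1.55, 1.67 and 1.94 with CpG. It had 3.92, 3.69 and 4.11 against 1.57, 2.10 and 2.18 in Tlr997, and 3.87, 3.65 and 3.76 against 2.15, 2.25 and 2.40 in Tlr779. Stimulated and unstimulated libraries did not overlap, and the log2 fold changes were -2.43 ± 0.19 (SE), -1.96 ± 0.19 and -1.49 ± 0.15. Zfp273 fell by 2.38, 2.03 and 2.01 on the log2 scale, but 12.8% of the 75-base stretches of its transcripts also occur in other genes, chiefly Zfp85, so the division of its reads is uncertain. Zfp759 fell by 2.02, 1.42 and 1.49, and Zfp40 by 1.73, 1.28 and 1.74. Zfp324 fell by 1.78, 1.32 and 1.61, Zfp763 by 1.48, 1.19 and 1.68, and Zfp882, which overlaps Zfp617 on the same strand, by 1.27, 0.69 and 1.72.

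Zfp667 (Mipu1), described as induced by ischemia in heart and brain, gave an unequal pattern. It had 4.05, 4.19 and 4.19 log2 CPM in unstimulated Tlr9het against 2.13, 2.06 and 2.09 with CpG, and 4.34, 4.26 and 4.34 against 2.37, 2.42 and 2.47 in Tlr997, falls of 2.05 and 1.90 on the log2 scale. In Tlr779 it had 3.99, 4.19 and 3.84 unstimulated and 3.51, 3.94 and 2.91 with CL097. The CL097 libraries spread over more than 1 log2 unit and overlapped the unstimulated ones, and the log2 fold change of -0.55 ± 0.25 (SE) was not called (limma adjusted p = 0.087). The same difference was called when the replicate number entered as a block (adjusted p = 0.019), in 1 model of all 18 libraries (adjusted p = 0.014) and without CL097 replicate 2 (-0.79, adjusted p = 0.017).

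The largest rises were those of Zfp593, Zfp827, Zfp296, Zfp828, Zfp639, Zfp213, Zfp598 and Zfp281, in none of which the search found a KRAB box. Zfp593, an assembly factor of the large ribosomal subunit, had 3.04, 3.15 and 3.23 log2 CPM in unstimulated Tlr9het and 5.63, 5.45 and 5.47 with CpG. In Tlr997 it had 3.25, 3.59 and 4.04 unstimulated, the last in the replicate that stood apart, and 5.31, 5.38 and 5.17 with CpG. In Tlr779 it had 3.20, 3.38 and 3.14 against 5.12, 4.87 and 4.72 with CL097. The levels with agonist were above all unstimulated ones, and the log2 fold changes were 2.38 ± 0.16 (SE), 1.66 ± 0.16 and 1.66 ± 0.14 (limma adjusted p = 1.3e-08, 5.7e-07 and 3.1e-05), the first being 5.20-fold. Zfp593 overlaps E130218I03Rik on the opposite strand. The other ribosome assembly gene of the family, Zfp622, had log2 fold changes of 0.35, -0.02 and 0.03 and was not called.

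Zfp827, which brings the NuRD co-repressor complex to telomeres, had 4.29, 4.27 and 3.70 log2 CPM in unstimulated Tlr9het and 5.72, 5.64 and 5.53 with CpG. It had 4.22, 3.96 and 4.30 against 5.83, 5.59 and 5.65 in Tlr997, and 4.18, 3.70 and 4.51 against 5.51, 5.45 and 5.45 in Tlr779. The unstimulated values spread more than the stimulated ones, and the groups did not overlap. Its log2 fold changes were 1.55 ± 0.15 (SE), 1.53 ± 0.15 and 1.34 ± 0.19. Zfp296, linked to pluripotency and reprogramming, rose by 1.43, 1.28 and 0.87 on the log2 scale. Zfp828 (Champ1), needed for chromosome alignment in mitosis, rose by 1.35, 1.17 and 1.08. Zfp639 rose by 1.23, 1.16 and 0.72 and Zfp213 by 1.16, 1.06 and 0.63.

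**Figure D3:**
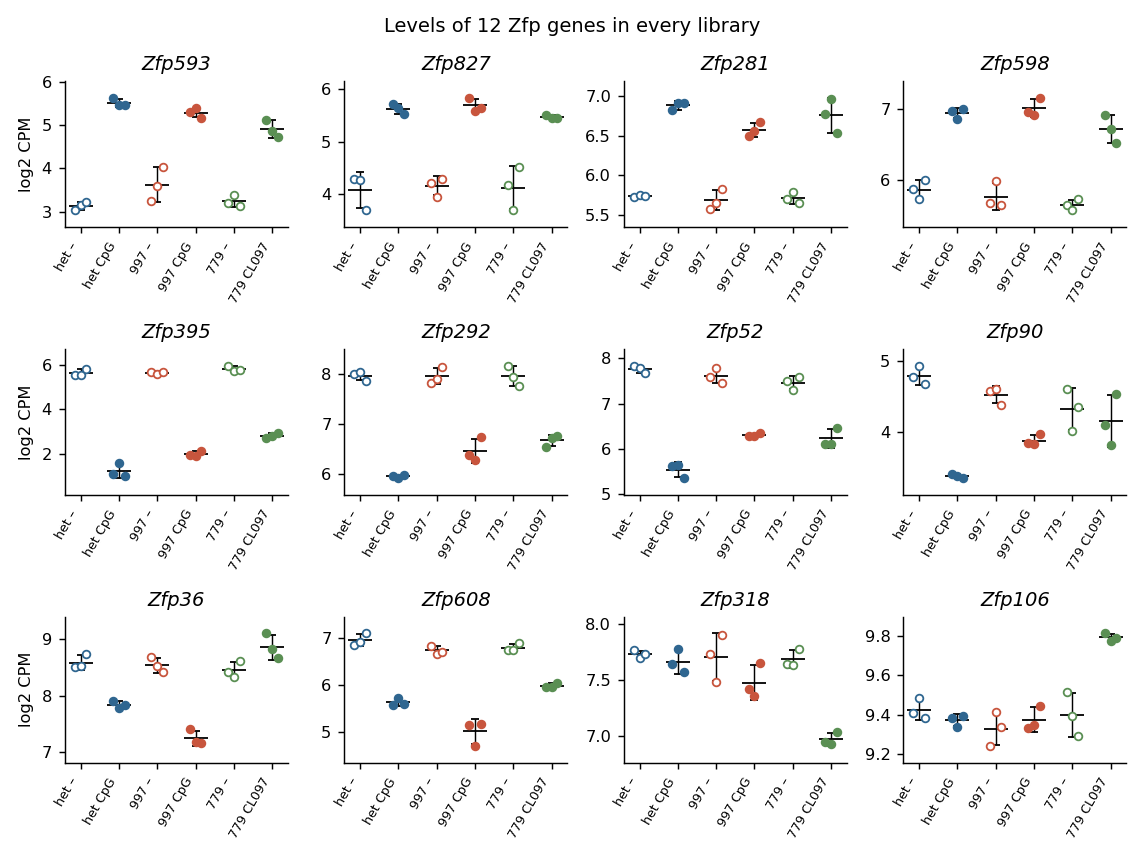
Log2 CPM of 12 Zfp genes in the 18 libraries, with open circles for unstimulated and filled circles for stimulated libraries of Tlr9het, Tlr997 and Tlr779 from left to right, and with the mean and SD of each group (n = 3). Scales differ between panels and do not start at 0. Zfp395 fell from over 5.5 to under 3 in every genotype, and Zfp36 fell with CpG but not with CL097.

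Members grouped by known role moved as follows. The lists are short, and calls were common among all tested genes. Of these, 29.7% were higher and 28.2% lower in Tlr9het, 29.6% and 26% in Tlr997, and 22.7% and 23.6% with CL097. Of the ubiquitin and SUMO ligases, Zfp598, which marks collided ribosomes, had 5.88, 5.73 and 6.001 log2 CPM in unstimulated Tlr9het and 6.97, 6.87 and 7.00 with CpG, and rose by 1.07, 1.24 and 1.07 on the log2 scale in the 3 responses. Zfp451, a SUMO ligase, rose by 0.62, 0.65 and 0.71. Zfp91, a ubiquitin ligase linked to noncanonical NF-kB signaling, had log2 fold changes of 0.06, 0.20 and 0.43 and was not called.

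Of 7 well studied DNA-binding factors without a KRAB box, 1 was called in each response, and it was Zfp281, a factor of the stem cell transcription network. Calls were more common among all tested genes, by the shares given above. Zfp281 had 5.72, 5.75 and 5.75 log2 CPM in unstimulated Tlr9het and 6.82, 6.91 and 6.91 with CpG, and its log2 fold changes were 1.14 ± 0.07 (SE), 0.89 ± 0.07 and 1.04 ± 0.11. Zfp143, a factor of promoters, had log2 fold changes of 0.36, 0.35 and 0.43, and Zfp148 -0.38, -0.32 and -0.35, all under the fold threshold. Zfp384, Zfp410, Zfp217 and Zfp219 were not called either, but Zfp219 was without unstimulated Tlr9het replicate 3 (-0.504) and, with CL097, without CL097 replicate 2 (0.63). Zfp410, known as an activator of Chd4, had -0.08, 0.04 and 0.03.

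The RNA-binding, splicing and mitosis list held 6 members. Zfp36 (tristetraprolin), which promotes decay of AU-rich mRNAs such as that of Tnf, was the only member of this list that fell with CpG, and its values follow with the genotypes. Zfp318, which in B cells allows IgD to be made by the long heavy-chain transcript, had 7.77, 7.70 and 7.73 log2 CPM in unstimulated Tlr9het and 7.64, 7.78 and 7.57 with CpG, which overlap. In Tlr779 it had 7.65, 7.63 and 7.78 unstimulated and 6.94, 6.93 and 7.04 with CL097, without overlap. Its log2 fold changes were -0.07, -0.23 and -0.72 ± 0.07 (SE), of which the last was called. Zfp830, a splicing protein, rose by 0.54 in Tlr9het and 0.51 in Tlr997 with CpG and had 0.35 with CL097, and its calls were lost without unstimulated Tlr9het replicate 2 (0.49), and without Tlr997 unstimulated replicate 1 (0.496) or 2 (0.48) or CpG replicate 2 (0.45). Zfp207 (BuGZ), a spindle protein, rose by 0.59 in Tlr997, and Zfp326, which couples transcription to splicing, by 0.57 there, calls that were lost without unstimulated Tlr997 replicate 1 (0.48) for Zfp207 and without its replicate 3 (0.48) for Zfp326. Zfp106 had the highest unstimulated mean of all members, 9.38 log2 CPM, and log2 fold changes of -0.05, 0.04 and 0.40, none called. Per kilobase of exon, Zfp36 had the highest unstimulated level of all members at 6.73 on the log2 scale, followed by Zfp869 at 6.10, Zfp106 at 6.002 and Zfp52 at 5.95.

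Of the chromatin and Integrator partners, Zfp592, which acts with Zmynd8, fell by 0.97 and 0.96 on the log2 scale with CpG and had -0.48 with CL097, which was called without unstimulated Tlr779 replicate 2 (-0.52). Zfp609, an Integrator partner, had 0.31 and 0.42 with CpG and rose by 0.56 with CL097, a call lost without unstimulated Tlr779 replicate 2 (0.50, under the fold threshold). Zfp687, Zfp644 and Zfp516 were not called, though Zfp516 was with CL097 without CL097 replicate 2 (0.52). Of the KRAB proteins known for retroelement or imprint silencing, Zfp809, which silences murine leukemia virus, had log2 fold changes of -0.12, 0.17 and -0.30, none called. Zfp445, which protects imprints, fell by 0.59 in Tlr9het and had -0.41 and -0.16 in the other responses. In Tlr997 it was called without unstimulated replicate 1 (-0.55) or 2 (-0.51) or CpG replicate 3 (-0.55). Zfp932 rose by 0.88, 0.53 and 0.65, but shares 39.6% of its 75-base stretches, chiefly with Gm15446. Its rise in Tlr997 was lost without Tlr997 unstimulated replicate 1 (0.44) or 2 (0.39) or CpG replicate 3 (0.48), and that with CL097 without CL097 replicate 2 (0.54) or unstimulated replicate 3 (0.50).

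The partners through which KRAB boxes act did not move one way. Of 23 co-repressor genes measured, 5 rose and 5 fell with CpG in Tlr9het, 9 were higher and 4 lower with CpG in Tlr997, and 4 higher and 2 lower with CL097, with median log2 fold changes of 0.19, 0.13 and 0.17. Of all tested genes, 29.7% were higher and 28.2% lower in Tlr9het, 29.6% and 26% in Tlr997, and 22.7% and 23.6% with CL097. Calls in both directions were thus common among all genes too. Trim28, the scaffold that binds the KRAB box, rose from 8.24 ± 0.08 to 8.85 ± 0.04 log2 CPM (SD, n = 3) in Tlr9het and from 8.20 ± 0.10 to 8.90 ± 0.03 in Tlr997, and was 8.39 ± 0.01 and 8.61 ± 0.11 in Tlr779, where it was not called. Atf7ip, which stabilizes the methyltransferase Setdb1, fell by 1.92, 1.47 and 1.497 on the log2 scale, from 7.88 ± 0.05 to 5.96 ± 0.08 log2 CPM in Tlr9het. Trim24 fell by 1.13, 0.79 and 0.86. Mta1, Hdac2 and Rbbp7, subunits of NuRD, rose in all 3 responses, with log2 fold changes of 1.01, 0.91 and 0.82 for Mta1 and 1.07, 1.02 and 0.74 for Hdac2. Of the other NuRD genes of the list, Chd3, Chd4, Hdac1, Mta2, Rbbp4 and Gatad2a were called in no response, Mbd3 rose by 0.56 with CpG in Tlr997 alone, and Gatad2b fell by 0.56 with CpG in Tlr9het alone, differences between the genotypes that were not called. Dnmt1 fell by 0.92 and 0.70 and Cbx3, an HP1 gene, by 0.74 and 0.83 with CpG. The other HP1 genes moved up, with Cbx1 rising by 0.77 and Cbx5 by 0.69 with CpG in Tlr997. Setdb1 rose by 0.73 there, and Cbx5 by 0.57 with CL097. With CpG in Tlr9het, Cbx1 had 0.49, Cbx5 0.33 and Setdb1 0.46, none called, and their differences between the genotypes were not called.

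Members that lie side by side in the genome did not all respond alike. Runs of at least 4 members with gaps of at most 200 kb made 10 neighbourhoods, which held 61 members, 50 of them with a KRAB box. Among all genes over 3 log2 CPM unstimulated, 31.8%, 29.2% and 25.7% were lower in the 3 responses, and 28.7% were higher with CpG in Tlr9het. The run from Zfp712 to Zfp273 (chr13:67038596-67827002, GRCm38) held 11 KRAB members. In the 3 responses 0 of them were higher and 6, 4 and 5 lower, near the shares of all KRAB members given above. All 11 had an estimate below 0 with CpG in Tlr9het. The run from Zfp677 to Zfp760 (chr17:21383748-21725636) held 6 KRAB members, all lower with CpG in Tlr9het, 4 lower in Tlr997 and 3 lower with CL097. Its log2 fold changes in Tlr9het were -0.77 for Zfp677, -0.54 for Zfp51, -1.19 for Zfp53, -2.22 for Zfp52, -1.84 for Zfp948 and -1.68 for Zfp760. The run from Zfp553 to Zfp689 (chr7:127233061-127449158) differed in direction within itself. With CpG in Tlr9het, Zfp553 rose by 0.84, Zfp747 by 0.70 and Zfp689 by 0.77, while Zfp688 fell by 0.71 and Zfp764 had -0.27. Without Tlr9het CpG replicate 2 the fall of Zfp688 was not called (-0.55, adjusted p = 0.054). Zfp747 and Zfp764 share 21.4% and 13.6% of their 75-base stretches, chiefly with 9130019O22Rik.

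**Figure D4:**
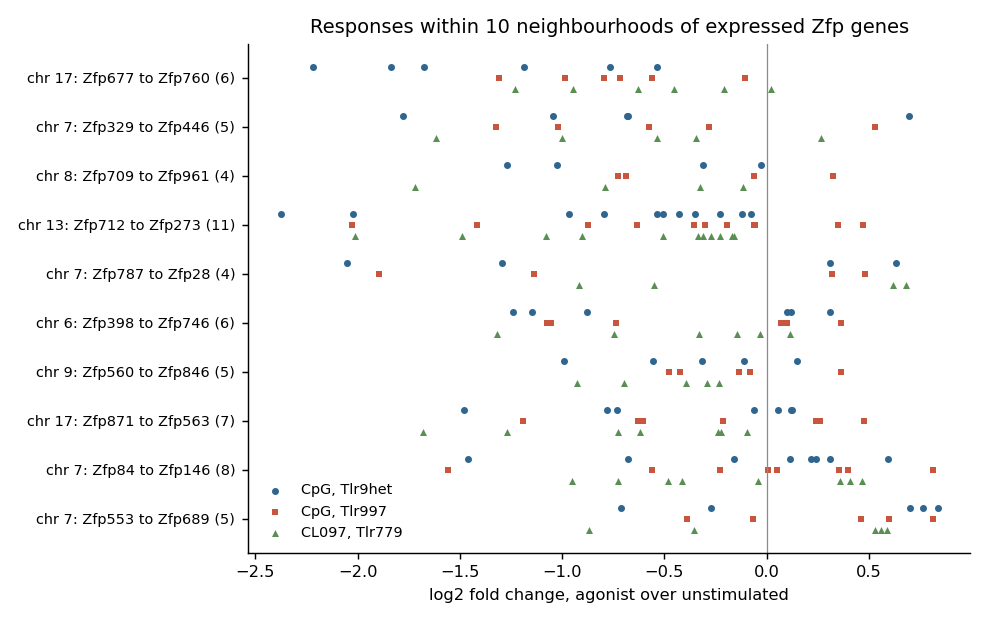
Log2 fold changes of members in 10 neighbourhoods of adjacent expressed Zfp genes, with the number of members in brackets and one symbol for each agonist response. The run from Zfp677 to Zfp760 lies below 0 in the CpG responses, and the run from Zfp553 to Zfp689 has members on both sides of 0.

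The genotypes were compared as Tlr997 against Tlr9het, which differ in the TIR domain of the receptor. Tlr997 mice are homozygous, and the study reports equal TLR9 protein in B cells of both genotypes. With CpG, Tlr9 transcripts averaged 8.01 log2 CPM in Tlr9het and 7.31 in Tlr997. The part of this difference in the results was not tested. Without stimulation, 0 members differed by the limma call, beside 0.0174% of all genes higher and 0% lower (0.0119% and 0% of those over 3 log2 CPM). An unadjusted p under 0.05 was found in 22 members, a count not set beside that of all genes, so no difference is read from it. With CpG, 4 members were higher and 2 lower in Tlr997, beside 1.25% and 1.47% of all genes and 1.54% and 1.42% of those over 3 log2 CPM, so the members' shares were 1.99% and 0.995%. A direct test of the responses against each other gave 2 members with a higher and 1 with a lower response in Tlr997, beside 0.687% and 0.853% of all genes and 0.884% and 0.932% of those over 3 log2 CPM. This count was 8 without unstimulated Tlr997 replicate 3, and 5 with a replicate block within genotype. These shares lay near those of all genes, and the results below are of single genes. Summed B cell markers also differed between the CpG groups, from 10.98 to 11.28 log2 CPM in Tlr997 and from 10.17 to 10.24 in Tlr9het, and the part of this in the differences was not tested.

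Zfp52, a KRAB zinc finger gene, gave the largest difference of responses among the members called. It had 7.83, 7.78 and 7.67 log2 CPM in unstimulated Tlr9het and 7.59, 7.78 and 7.46 in unstimulated Tlr997, which overlap. With CpG it had 5.62, 5.64 and 5.36 in Tlr9het and 6.28, 6.28 and 6.34 in Tlr997, which do not. The fall was -2.22 ± 0.09 (SE) on the log2 scale in Tlr9het and -1.31 ± 0.09 in Tlr997, a difference of 0.91 ± 0.13 (limma adjusted p = 0.0030), and the level with CpG was higher in Tlr997 by 0.76 ± 0.09 (adjusted p = 0.00039). The difference of responses was called without any single library. In Tlr779, Zfp52 fell from 7.49, 7.31 and 7.58 to 6.11, 6.11 and 6.47 with CL097. Zfp52 overlaps 9330136K24Rik on the opposite strand.

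Zfp90, a KRAB protein that binds the repressor REST, had 4.77, 4.93 and 4.67 log2 CPM in unstimulated Tlr9het and 3.40, 3.37 and 3.35 with CpG. In Tlr997 it had 4.58, 4.60 and 4.38 unstimulated and 3.84, 3.82 and 3.96 with CpG. The falls were -1.42 ± 0.10 (SE) and -0.65 ± 0.10 on the log2 scale, and their difference was 0.77 ± 0.15 (limma adjusted p = 0.018). This difference was not called without unstimulated Tlr9het replicate 1 (adjusted p = 0.056) or 2 (0.053) or Tlr9het CpG replicate 2 (0.050) or 3 (0.057), or with all 18 libraries in 1 model (0.12). With CpG its level was higher in Tlr997 by 0.50 ± 0.10 (adjusted p = 0.013), at the fold threshold and not called. In Tlr779 the values were 4.60, 4.01 and 4.35 unstimulated and 4.10, 3.81 and 4.53 with CL097, which overlap, and the gene was not called. Zfp90 overlaps Gm26786 on the opposite strand.

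Zfp36 went the other way. It had 8.51, 8.52 and 8.74 log2 CPM in unstimulated Tlr9het and 7.91, 7.77 and 7.83 with CpG, and 8.68, 8.52 and 8.42 in unstimulated Tlr997 and 7.40, 7.17 and 7.15 with CpG. Its level with CpG was lower in Tlr997 by 0.60 ± 0.09 (SE) on the log2 scale (limma adjusted p = 0.0016), without overlap. The falls were -0.75 and -1.30, and their difference, -0.55 ± 0.12 (adjusted p = 0.038), was called with all libraries, but without any 1 of 9 libraries the adjusted p lay between 0.059 and 0.11. It was 0.17 with no filter on low values, 0.11 with no variance trend and 0.096 with all 18 libraries in 1 model. In Tlr779 it had 8.42, 8.33 and 8.62 unstimulated and 9.11, 8.82 and 8.66 with CL097, a log2 fold change of 0.41 ± 0.12 that was under the fold threshold, and over it (0.51) without CL097 replicate 3. The gene Gm44710 overlaps Zfp36 on the opposite strand.

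The remaining members called between the genotypes with CpG were Zfp395, Zfp292 and Zfp758, higher in Tlr997 by 0.78 ± 0.15 (SE), 0.51 ± 0.11 and 0.50 ± 0.14 on the log2 scale, and Zfp608, lower by 0.62 ± 0.11 (limma adjusted p = 0.010, 0.014, 0.048 and 0.0063). Zfp758, a KRAB member, had 3.25, 3.77 and 3.36 log2 CPM with CpG in Tlr9het and 3.85, 4.09 and 3.95 in Tlr997, and its call was lost under the replicate block (adjusted p = 0.056), with no filter on low values (0.15), with no variance trend (0.083), on the log2(CPM + 1) scale (0.050), with libraries centred on their medians (0.051), with array weights (0.47, under the fold threshold) and without any 1 of 9 libraries. Zfp608 had 5.59, 5.73 and 5.60 in Tlr9het and 5.16, 4.71 and 5.19 in Tlr997, and was under the fold threshold without Tlr997 CpG replicate 2 (-0.47), and its adjusted p was 0.057 with no filter on low values. The call of Zfp292 was lost with no filter on low values (adjusted p = 0.100), with no variance trend (0.053), and without Tlr997 CpG replicate 3 (0.37) or Tlr9het CpG replicate 1 (adjusted p = 0.054) or 2 (0.058), and that of Zfp395 without Tlr9het CpG replicate 1 (adjusted p = 0.052). The difference of responses was not called for these 4 genes in the 12-library model. It was 0.78 ± 0.22 for Zfp395, 0.52 ± 0.15 for Zfp292, 0.65 ± 0.19 for Zfp758 and -0.40 ± 0.16 for Zfp608. That of Zfp292 was called with the replicate block within genotype (adjusted p = 0.010), with array weights (0.57, adjusted p = 0.021) and without unstimulated Tlr997 replicate 3 (0.60, adjusted p = 0.041). Those of Zfp395 (0.95, adjusted p = 0.033) and Zfp758 (0.81, adjusted p = 0.043) were called without Tlr9het CpG replicate 2.

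**Figure D5:**
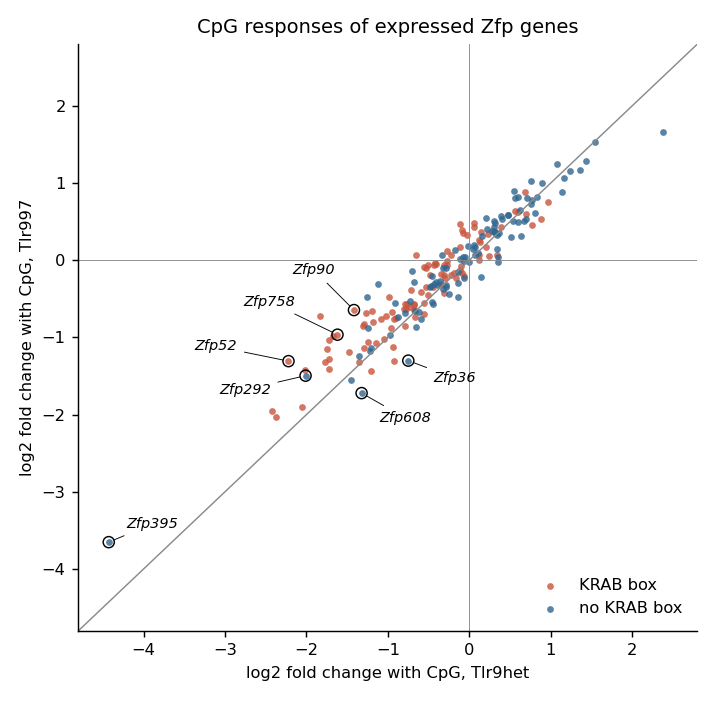
Log2 fold change with CpG in Tlr997 (vertical) against Tlr9het (horizontal) for members with and without a KRAB box, with the line of equal responses. The 7 circled genes were called between the genotypes with CpG or in the difference of responses; Zfp52 and Zfp90 lie above the line and Zfp36 below it.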

How the data were processed

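Paired-end libraries were made with a stranded Illumina mRNA kit and sequenced on a NextSeq instrument. Per the submitters' processing notes, the tools were FastQC 0.11.7, Trim Galore 0.6.5, STAR 2.6.1a, featureCounts of Subread 2.0.1 and limma, with the mm10 build. The authors deposited log2 CPM values, 1 table per library, which the study's methods describe as normalized by quantiles and transformed by voom. The deposited log2 values carry no counts, so the depth of each library is unknown and no counting interval was given. The back-transformed CPM of a library summed to between 991992 and 1004412, and the lowest common value was -5.05. The strand setting of the counting is not given in the sources used here, so reads of a gene and an opposite-strand neighbour may not be separated (68 members have an overlapping gene), and 17 members share over 10% of their 75-base stretches with other genes.

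The values were fitted with limma 3.58.1 (R 4.3.3; mean-variance trend, two-sided), with the 12 libraries of the Tlr7-/- arm and the 6 of the Tlr779 arm in separate models and a mean per group. Genes over 0 log2 CPM in at least 3 fitted libraries were tested, p-values were adjusted over all of them by Benjamini-Hochberg, and calls needed an adjusted p below 0.05 with a log2 fold change beyond 0.5 in size. The fit was tested on simulated data. The labels call the replicates separate mice for each genotype, and the spread is that between 3 libraries. Deviations of same-numbered libraries from their group means correlated with r = 0.51, 0.29 and 0.51 in Tlr9het and 0.25, 0.49 and 0.33 in Tlr779, so the numbers pair these libraries, and with 0.37, 0.083 and 0.025 in Tlr997, where 2 of 3 values were under 0.1. In Tlr997 the summed erythroid, neutrophil, macrophage and T cell markers nevertheless had the same order by number unstimulated and with CpG (erythroid 8.69, 4.02 and 5.34 against 7.74, 3.79 and 4.84 log2 CPM), so the results of a block within genotype are given where they change a call. In the Tlr7-/- arm, of 6614 genes at the low end 6306 held 1 value per replicate number and 822 of these differed between numbers, so values there carry a part set by the number, of a step not given in the sources used here.

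Named genes were, in each response, 6 called members at either end of the log2 fold changes whose libraries did not overlap, every member called between genotypes, the members of the role lists, those at the limit of 3 log2 CPM and the 3 with the highest unstimulated mean. A KRAB A box was at least 10 of 15 anchor residues, and a C2H2 finger was C, 2 to 4 residues, C, 12 residues, H, 3 to 5 residues, H, in proteins translated from GENCODE vM21. One gene of the name pattern and one listed marker are not reported here. The members and lists were chosen with earlier results of these data known. Alternatives changed the filter, the trend, the pseudocount, the libraries fitted, the fold threshold, the block, the scaling, the weights, the replicates and the member rule. Medians over tested genes lay between 4.82 and 4.84 log2 CPM in all libraries.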

Additional observations from a re-analysis of the deposited data

Results flagged for a closer look

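The CpG response differed between Tlr997 and Tlr9het by the interaction term of limma for 3 members. The difference (Tlr997 minus Tlr9het) was 0.91 ± 0.13 (SE) on the log2 scale for Zfp52 (adjusted p = 0.0030), 0.77 ± 0.15 for Zfp90 (adjusted p = 0.018) and -0.55 ± 0.12 for Zfp36 (adjusted p = 0.038). Zfp52 and Zfp90 fell less with CpG in Tlr997 than in Tlr9het, and Zfp36 fell more. Only Zfp52 kept its call without each of the 12 libraries in turn. Zfp90 lost it without any 1 of 4 libraries and with all 18 libraries in 1 model (adjusted p = 0.12), and Zfp36 without any 1 of 9 libraries.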

How the results depend on the processing

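Under the alternatives run, no call of a named member or count turned its direction. With a log2 fold change over 1 required, the members that rose and fell were 8 and 39 with CpG in Tlr9het, 8 and 27 in Tlr997, and 5 and 20 with CL097, and 0 were called between genotypes with CpG or in the difference of responses. With no fold threshold, 51, 56 and 40 members were higher and 107, 83 and 95 lower in the 3 responses, and 11 were called between genotypes with CpG. With a member limit of 4 log2 CPM, 21 rose and 51 fell in Tlr9het and 46 fell with CL097, since fewer members enter. The counts at these changed thresholds and limit are not set beside those of all genes. They show only how the number of calls depends on the setting. Members chosen by the stimulated mean gave 41 higher and 51 lower in Tlr9het, 41 and 44 in Tlr997, and 32 and 48 with CL097, so the excess of falls was smaller, with shares lower of 28%, 24.2% and 26.4% beside 26.6%, 24.1% and 20.8% of all genes chosen in the same way. Without the filter on low values 3 members were called between genotypes with CpG. For the difference of responses, where 3 members were called, all 18 libraries in 1 model gave 1, array weights gave 9, and the replicate block within genotype gave 5. The cause was not tested. The block changed no other count by over 1.5 times. Leaving out 1 library at a time gave 29 to 33 that rose and 75 to 81 that fell in Tlr9het, 31 to 37 and 62 to 72 in Tlr997, and 22 to 28 and 65 to 74 with CL097. It gave 4 to 8 called between genotypes with CpG, 0 unstimulated, and 1 to 8 in the difference of responses, with 8 without unstimulated Tlr997 replicate 3 and 1 without unstimulated Tlr9het replicate 1 or Tlr9het CpG replicate 3. Depth is unknown, so it could not be weighed for low members.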

Other observations

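Zinc finger genes outside the Zfp name were counted in the same way. Of 33 other genes over 3 log2 CPM with a KRAB box, 5 rose and 16 fell in Tlr9het, 5 and 10 with CpG in Tlr997, and 1 and 19 with CL097, with median log2 fold changes of -0.47, -0.14 and -0.66. The shares lower were 48.5%, 30.3% and 57.6%, beside 31.8%, 29.2% and 25.7% of all genes over 3 log2 CPM, so that in Tlr997 was near the share of all genes. Of 153 other C2H2 genes, 27 were higher and 66 lower, 27 and 50, and 21 and 53 in the same order, with 43.1%, 32.7% and 34.6% lower. Among Zfp genes at or under 3 log2 CPM, 78 were tested in the Tlr7-/- arm, where 15 rose and 21 fell in Tlr9het and 21 and 17 in Tlr997, and 76 in the Tlr779 arm, where 12 were higher and 25 lower. The shares lower were 26.9%, 21.8% and 32.9%, beside 28.2%, 26% and 23.6% of all tested genes.

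The members called with CL097 were read in the libraries of the other arm, a split chosen after the data were seen. Of the 72 members lower with CL097, 59 were lower with CpG in Tlr9het (81.9%, beside 86.6% of 2605 such genes) and 52 in Tlr997 (72.2%, beside 83.7%). The log2 fold change with CpG was higher in Tlr997 than in Tlr9het, mostly a smaller fall, in 57 of these 72 members (79.2%, beside 63.4% of such genes). The median difference was 0.19 on the log2 scale beside 0.10, and 1 of the 72 was called. Unstimulated, the level was higher in Tlr997 in 25 of the 72 (34.7%, beside 42.1%). With CpG it was higher there in 52 (72.2%, beside 61.7%). Of the 25 members higher with CL097, 21 were higher with CpG in Tlr9het (84%, beside 87.2% of 2510 such genes) and 20 in Tlr997 (80%, beside 87.6%), shares no larger than those of all genes, and 0 were lower in either by the limma call.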
